A study of Mus musculus with 6 samples.

Results

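The 9 genes described here are markers of the pancreatic duct cell and keratins of simple, single-layered epithelia: the keratins Krt8, Krt18, Krt19, Krt7 and Krt20, the transcription factor Sox9, the chloride channel gene Cftr, the carbonic anhydrase gene Car2, and Spp1, which encodes osteopontin. They were chosen by name, as every probe that is no control spot and carries one of these gene names in the scanner files. That gave 10 probes of 55681 on the array, 2 of them for Krt8 and 1 for each other gene. All 10 passed the filter on dim probes, and the 9 genes are among 14031 tested genes.

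RNA from whole pancreas, taken at postnatal day 0.5 from C57BL/6N mice, was labelled with Cy3 and hybridised to 1-colour Agilent mouse arrays of 60-base probes, 1 array per sample. Spink3, the deleted gene, codes for an inhibitor of trypsin made by acinar cells. There were 2 arrays each for Spink3-/- mice, Spink3-/-XKI/+ mice and Spink3+/+ mice, the wild-type control. The design text states that in Spink3-/- all acinar cells die with autophagy and without apoptosis, whereas in Spink3-/-XKI/+ some of them are normal and the others die. The labels neither explain the name XKI nor state whether replicates are separate animals, so p-values here reflect sample-to-sample spread that may be technical.

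Keratins form filaments from pairs of a type II and a type I chain. Krt8 (type II) and Krt18 (type I) make up the main pair of simple epithelia, acinar cells included, while Krt19 (type I) and Krt7 (type II) are strongest in the pancreas in duct cells. Krt20 is a type I keratin of the gut lining that the mouse pancreas also makes in small amounts. Duct cells secrete the bicarbonate fluid that carries the digestive enzymes. Carbonic anhydrase supplies the bicarbonate and the Cftr channel drives its export, and Sox9 maintains the duct cell programme and the progenitors of the embryonic pancreas. Since acinar cells can take on duct features after injury, these genes are often read as signs of acinar-to-ductal metaplasia.

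The letters of 5 probes are shown because they read the coding part of their transcript or run up to its end, so the values below can be tied to a stretch of message. All positions are of the mouse build mm9, as the array files give them, and the sequences are those of the array's own probes, 5′ to 3′, with a stop codon in capitals where the probe spans it. The Krt8 probe is the dimmer of the pair of Krt8 probes. It lies at chr15:101828827-101828886 on the minus strand, the Krt18 probe at chr15:101862341-101862400 on the plus strand, the Krt7 probe at chr15:101253718-101253777 on the plus strand, the Krt19 probe at chr11:100002392-100002451 on the minus strand, and the Cftr probe at chr6:18270974-18271033 on the plus strand.
Krt8: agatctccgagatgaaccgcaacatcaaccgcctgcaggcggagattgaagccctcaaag
Krt18: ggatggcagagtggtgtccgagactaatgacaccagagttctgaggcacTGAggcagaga
Krt7: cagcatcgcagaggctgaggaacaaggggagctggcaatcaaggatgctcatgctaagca
Krt19: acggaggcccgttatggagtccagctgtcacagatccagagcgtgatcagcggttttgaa
Cftr: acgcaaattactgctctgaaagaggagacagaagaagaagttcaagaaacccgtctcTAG

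The Krt8 and Krt18 probes are read from opposite strands 33.5 kb apart, and Krt7 lies 573 kb from Krt8 on the same chromosome. The brighter Krt8 probe lies at chr15:101827138-101827197 on the minus strand, 1.63 kb from the dimmer one, and represents the gene below. Krt20 is read at chr11:99289776-99289835 on the minus strand, 713 kb from the Krt19 probe, and Sox9 at chr11:112648809-112648868 on the plus strand. Car2 is read at chr3:14900206-14900265 and Spp1 at chr5:104868502-104868561, both on the plus strand. The share of G and C ran from 30% in the Sox9 probe to 55% in the printed keratin probes, beside a median of 43.3% over all kept probes.

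All levels are the log2 of the background-subtracted processed signal minus the log2 of that array's 75th percentile, so a level of 0 is that percentile. A level of one probe says nothing about the level of another. The arrays lay on 1 slide and were read in 1 scan, with 75th percentiles of 111.2 to 155.3 and between 42.38% and 50.79% of the spots well above background. The targeted gene, listed in RefSeq as Spink1, had log2 levels of 3.25 and 2.95 in Spink3-/- and 2.64 and 2.34 in Spink3-/-XKI/+, against 9.84 and 10.26 in Spink3+/+. All 13 acinar genes and all 8 endocrine genes read as a check of the tissue label passed the filter on dim probes. The slide had 2 rows: Spink3-/- replicate 1 shared a row with both Spink3+/+ arrays, and Spink3-/- replicate 2 with both Spink3-/-XKI/+ arrays. Row and genotype therefore cannot be told apart for Spink3-/-XKI/+ against Spink3+/+ except through the Spink3-/- arrays.

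Across the members, the measured differences lay on both sides of 0. In Spink3-/- pancreas Krt8 and Krt19 were higher than in Spink3+/+ pancreas and Car2 and Sox9 were lower, with no overlap between the arrays. For Sox9 this was by a narrow margin, with replicate 1 at -0.57 in Spink3-/- and -0.54 in Spink3+/+. In Spink3-/-XKI/+ pancreas Krt20 and Cftr were higher and Car2 was lower, again with no overlap. The genotype means of Krt7 spanned 0.06 log2 units and those of Spp1 0.13. No member passed the adjusted threshold of 0.05 in limma (Benjamini-Hochberg over 14031 genes) in any comparison.

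**Figure D1:**
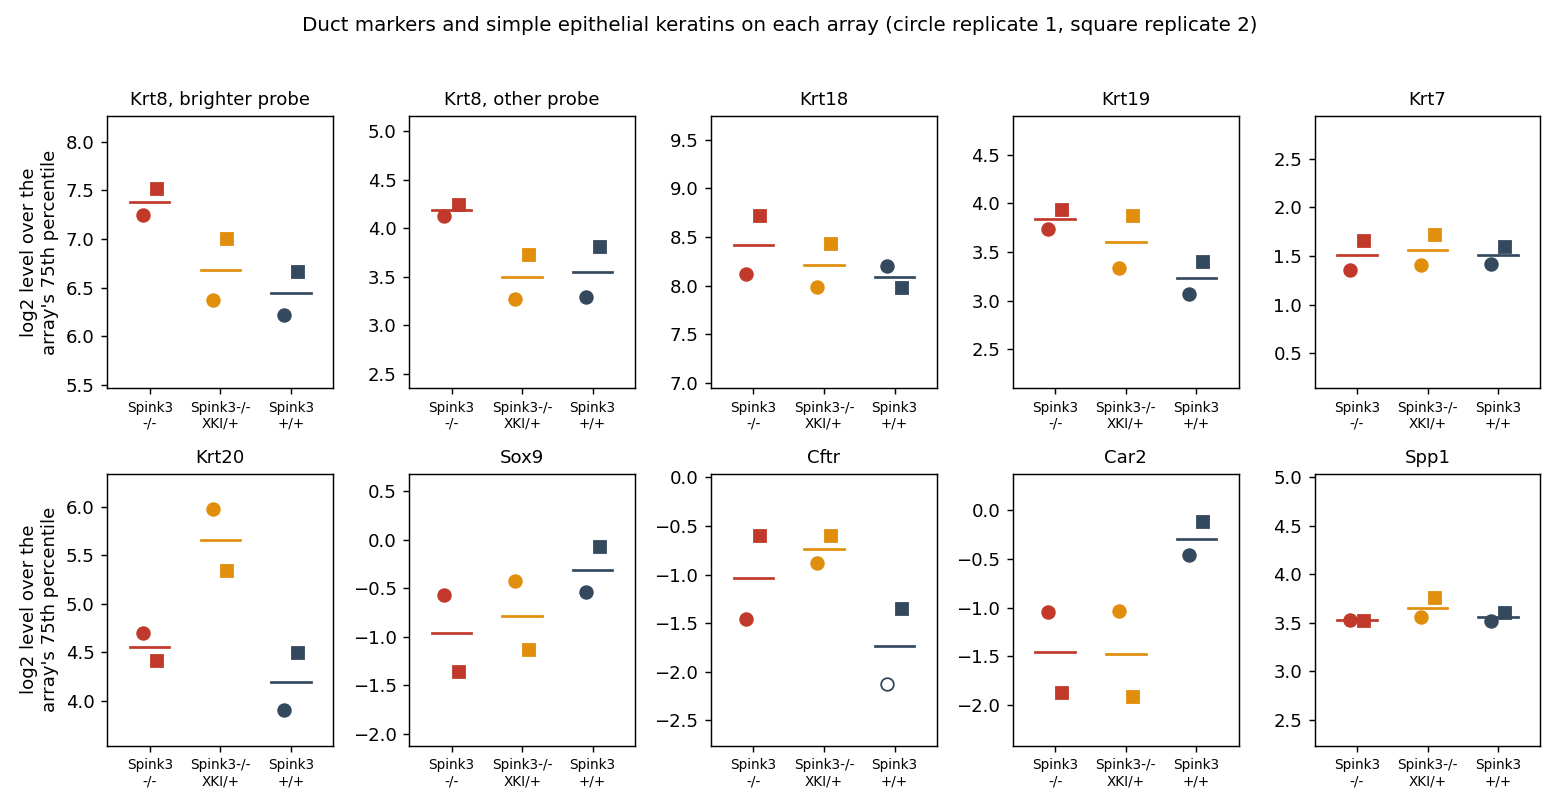
Log2 level (y axis, 0 being each array's 75th percentile) of the 10 probes, by genotype (x axis), with a circle for replicate 1, a square for replicate 2, a bar for the mean, and an open symbol where the spot was not well above background. Every panel spans the same number of log2 units: Krt20 stands highest in Spink3-/-XKI/+ at 5.97 and 5.34, and Car2 lies below the Spink3+/+ arrays in both other genotypes.

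In Spink3-/- against Spink3+/+, 0 of 9 members passed the adjusted threshold, as did 0.0356% of all tested genes. At an unadjusted p under 0.05 there were 3 members (Krt8, Krt19 and Car2), beside 5.03% of all genes. The arrays did not overlap for 2 members that were higher and 2 that were lower, where 16.1% of all genes were higher and 16.6% lower without overlap. The median difference of the members was 0.33 log2, against -0.01 for all tested genes.

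In Spink3-/-XKI/+ against Spink3+/+, 0 of 9 members passed, beside 0.00713% of all genes. An unadjusted p under 0.05 was reached by 3 members (Krt20, Cftr and Car2), beside 7.6% of all genes. There were 2 members higher and 1 lower without overlap, where the shares over all genes were 25.9% and 16.2%. The members' median difference was 0.12 log2, against 0.04 for all genes.

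Between Spink3-/- and Spink3-/-XKI/+, which tests whether the deficient genotypes differ from each other, 0 of 9 members passed, beside 0.00713% of all genes. Krt8 and Krt20 had an unadjusted p under 0.05, beside 7.26% of all genes. Without overlap, 1 member was higher and 2 were lower in Spink3-/-, where 13.1% of all genes were higher and 21.5% lower. The median difference was -0.06 log2, against -0.04 for all genes. Since the Spink3+/+ arrays serve both comparisons with the control, and each deficient genotype also serves 2 comparisons, the values of a gene in the 3 comparisons are not independent.

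**Figure D2:**
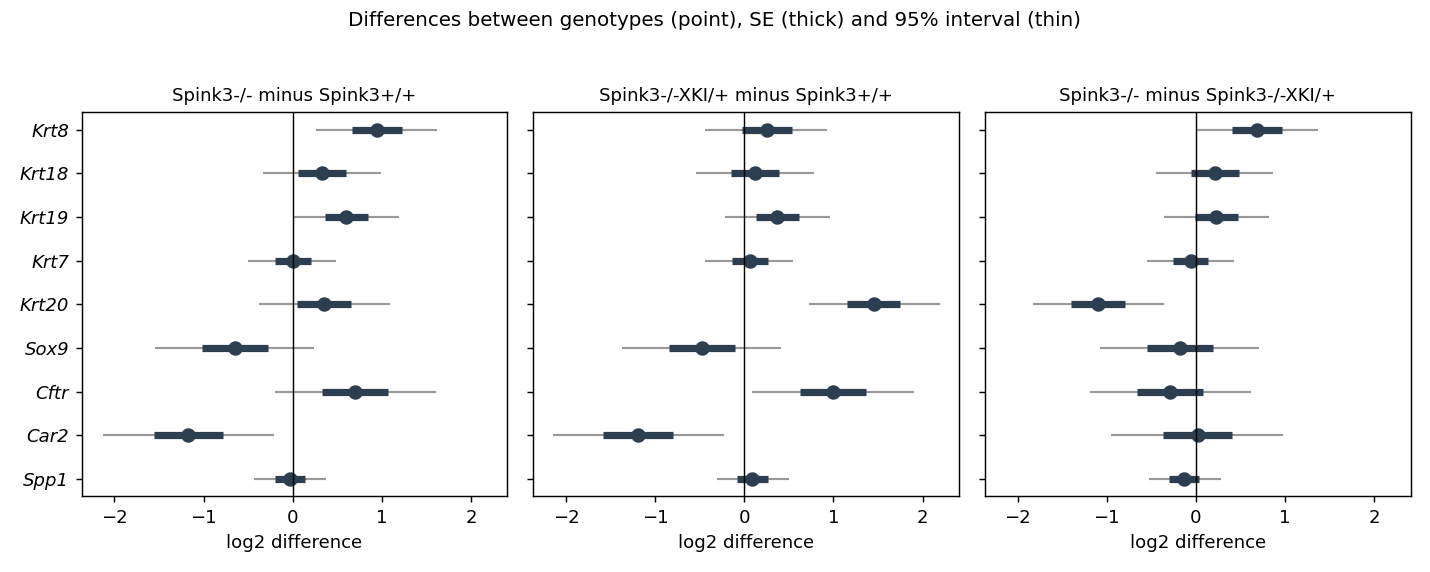
Log2 difference between genotypes (x axis) for the 9 members (y axis) in 3 comparisons, with the point for the limma estimate, the thick line for its standard error and the thin line for its 95% interval. Krt8 lies above 0 in Spink3-/- against Spink3+/+ (0.94), Krt20 in Spink3-/-XKI/+ against Spink3+/+ (1.45), and Car2 below 0 in both (-1.17 and -1.19).

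Krt8, the type II keratin of simple epithelia, had log2 levels of 7.25 and 7.51 in Spink3-/-, 6.37 and 7.0 in Spink3-/-XKI/+, and 6.22 and 6.66 in Spink3+/+. Both Spink3-/- arrays were above all others, and the other genotypes overlapped. The difference between Spink3-/- and Spink3+/+ was 0.94 log2 (SE 0.28, 95% interval 0.26 to 1.62), or 1.92-fold. Its limma adjusted p was 0.885. Against Spink3-/-XKI/+ the Spink3-/- difference was 0.69 (SE 0.28, limma adjusted p = 0.68). Between Spink3-/-XKI/+ and Spink3+/+ it was 0.25, with a 95% interval of -0.44 to 0.93.

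The dimmer Krt8 probe, whose letters are printed above, gave the same picture with smaller differences. Its log2 levels were 4.13 and 4.24 in Spink3-/-, 3.27 and 3.72 in Spink3-/-XKI/+ and 3.29 and 3.81 in Spink3+/+. Again both Spink3-/- arrays were above the rest. In a limma fit over 24818 kept probes the Spink3-/- difference was 0.63 against Spink3+/+ (SE 0.26, adjusted p = 0.992) and 0.68 against Spink3-/-XKI/+ (SE 0.26, adjusted p = 0.731). In that fit 0.0443% of the probes passed in the first of these comparisons and 0% in the second. The probes differed in sign for Spink3-/-XKI/+ against Spink3+/+, at 0.25 for the brighter and -0.05 for the dimmer one. For the brighter probe, Spink3-/- replicate 1 exceeded the mean of the Spink3+/+ arrays of its own slide row by 0.81, and Spink3-/- replicate 2 exceeded the mean of the Spink3-/-XKI/+ arrays of its own row by 0.82.

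Krt18, the type I partner of Krt8, did not separate the genotypes. It had log2 levels of 8.12 and 8.72 in Spink3-/-, 7.99 and 8.43 in Spink3-/-XKI/+ and 8.20 and 7.97 in Spink3+/+. The 3 genotypes overlapped, and the spread within Spink3-/- (0.60) was larger than the distance between the highest and the lowest genotype mean (0.33). The difference was 0.33 in Spink3-/- against Spink3+/+ (SE 0.27, 95% interval -0.33 to 0.99, limma adjusted p = 0.987) and 0.12 in Spink3-/-XKI/+ against Spink3+/+ (95% interval -0.54 to 0.78, adjusted p = 0.932). Of the Spink3-/- arrays replicate 2 was 0.63 above the Spink3+/+ mean, while replicate 1, in the row of the Spink3+/+ arrays, was 0.04 above it. Whether Krt8 and Krt18 differed in their response was not tested.

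Krt19, the type I keratin typical of duct cells, followed Krt8 in the order of the genotypes. Its log2 levels were 3.74 and 3.93 in Spink3-/-, 3.34 and 3.87 in Spink3-/-XKI/+ and 3.07 and 3.40 in Spink3+/+. Spink3-/- lay above Spink3+/+ without overlap, and Spink3-/-XKI/+ overlapped both. The difference was 0.60 log2 in Spink3-/- against Spink3+/+ (SE 0.24, 95% interval 0.01 to 1.19), or 1.52-fold, with a limma adjusted p of 0.987. It was 0.37 in Spink3-/-XKI/+ against Spink3+/+ (95% interval -0.22 to 0.96, adjusted p = 0.774). Within the slide row shared with Spink3+/+, the Spink3-/- array was 0.51 above the Spink3+/+ mean.

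Krt7, the type II keratin that accompanies Krt19 in ducts, had nearly equal means in the genotypes. It stood at 1.36 and 1.65 log2 in Spink3-/-, 1.41 and 1.72 in Spink3-/-XKI/+ and 1.42 and 1.59 in Spink3+/+. The arrays of all 3 genotypes overlapped. The 95% interval of the difference was -0.50 to 0.49 in Spink3-/- and -0.44 to 0.55 in Spink3-/-XKI/+, each against Spink3+/+, so a difference of about the size seen for Krt19 in Spink3-/-XKI/+ could not be seen at this number of arrays.

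Krt20 had the largest difference of the 9 members. Its log2 levels were 4.70 and 4.41 in Spink3-/-, 5.97 and 5.34 in Spink3-/-XKI/+ and 3.91 and 4.49 in Spink3+/+. Both Spink3-/-XKI/+ arrays were above all others, and Spink3-/- overlapped Spink3+/+. The difference between Spink3-/-XKI/+ and Spink3+/+ was 1.45 log2 (SE 0.30, 95% interval 0.72 to 2.19), or 2.73-fold, with a limma adjusted p of 0.382. By genotype means Krt20 was highest in Spink3-/-XKI/+, whereas Krt8, Krt18 and Krt19 were highest in Spink3-/-. The Spink3-/- value was lower than the Spink3-/-XKI/+ value by a difference of -1.1 (SE 0.30, limma adjusted p = 0.551). In Spink3-/- against Spink3+/+ the difference was 0.35 (95% interval -0.38 to 1.09).

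The distance between the deficient genotypes in Krt20 was also seen within a slide row. Within row 2 the Spink3-/- array was at -1.24 from the Spink3-/-XKI/+ mean, and the array of row 1 at -0.95. With row as a block, Spink3-/-XKI/+ minus Spink3+/+ was 1.74 (SE 0.54, limma adjusted p = 0.545). Over the 3 genotypes together, the moderated F test gave Krt20 an adjusted p of 0.502, the lowest of the members, and the test passed 0.0143% of all genes. The other members had adjusted F test p-values between 0.656 (Krt8) and 0.993 (Krt7).

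Markers of other Krt20-positive or neighbouring tissues were read beside this gene. Of 8 intestine genes, Cdx1 and Cdx2, the transcription factors that define gut epithelium, and Fabp2 and Cdh17 were not above background on any array. The other 4 genes summed to log2 levels of 2.41 to 2.72 in Spink3-/-, 3.13 to 3.20 in Spink3-/-XKI/+ and 3.06 to 3.15 in Spink3+/+. Among them Lgals4, a gut lectin, stood at -0.71 log2 in Spink3-/- and at 0.26 in Spink3-/-XKI/+ against Spink3+/+, while Vil1, a brush border protein, stood at -0.61 in Spink3-/-XKI/+. Guca2a, the guanylin gene, was not well above background in Spink3-/- or Spink3+/+ and was at least 1.24-fold higher in Spink3-/-XKI/+ than in Spink3+/+ (limma adjusted p = 0.577). All 6 mesothelium genes were tested, and they summed to 4.57 to 4.62 in Spink3-/-, 4.84 to 5.15 in Spink3-/-XKI/+ and 4.43 to 4.60 in Spink3+/+. The mesothelin gene Msln was 0.55 higher in Spink3-/-XKI/+ than in Spink3+/+ (SE 0.21, limma adjusted p = 0.625), and Upk1b was at least 1.14-fold higher. Upk1b was not well above background in Spink3+/+ and was on 1 of 2 arrays in Spink3-/-. Lrrn4 stood at 0.45 in Spink3-/-, with 1 array of each of these genotypes well above background. Guca2a and Upk1b came through the filter on dim probes only by the Spink3-/-XKI/+ arrays, which favoured their being higher there. The part of gut or mesothelium tissue in the Krt20 values was not tested.

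Liver genes stood beside Krt8 and Krt19, which bile duct cells and, for Krt8, liver cells also make. All 8 liver genes tested were higher in Spink3-/- than in Spink3+/+ without overlap, where 16.1% of all genes were. Apob is among them, but only the Spink3-/- arrays took it through the filter on dim probes, which favoured its being higher. The median difference of the 8, Apob included, was 1.74 log2. Of the 8, 0 passed limma's adjusted threshold while 5 had an unadjusted p under 0.05, beside 5.03% of all genes. Their summed level was 5.91 to 6.11 in Spink3-/-, 4.77 to 5.32 in Spink3-/-XKI/+ and 4.77 to 4.87 in Spink3+/+. Measured from the Spink3+/+ mean, replicates 1 and 2 of Spink3-/- stood at 1.73 and 1.43 for the mean of the liver genes. Those of Spink3-/-XKI/+ stood at -0.6 and 0.85. For Krt8 the same arrays stood at 0.81, 1.07, -0.07 and 0.57, and for Krt18 at 0.04, 0.63, -0.1 and 0.35. In Spink3+/+ the summed level of the liver genes was carried mostly by Ttr, at 4.05 and 4.10. Ttr stood at 4.20 and 4.21 in Spink3-/-. Serpina1a, an antitrypsin gene, differed by 2.15 (SE 0.34, adjusted p = 0.418) and the alpha-fetoprotein gene Afp by 2.30 (SE 0.64, adjusted p = 0.866). Apob, the apolipoprotein of liver and gut lipoproteins, was at least 2.73-fold higher in Spink3-/-, as it was not well above background in Spink3+/+. In Spink3-/-XKI/+ it was well above background on 1 of 2 arrays, and the arrays overlapped those of Spink3+/+. The part of liver RNA in the keratin values was not tested. In a whole-organ sample, fewer cells of a type and less RNA per cell cannot be told apart.

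**Figure D3:**
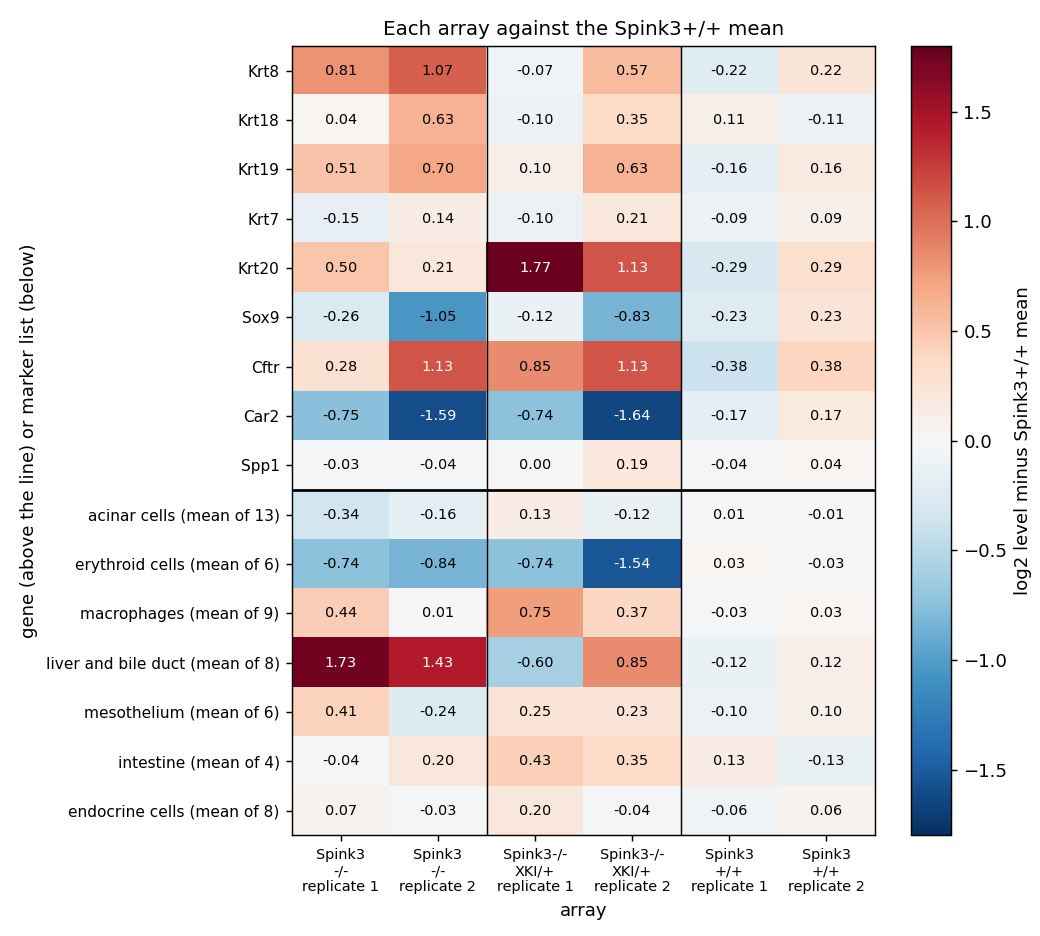
Log2 level on each array (columns) minus the mean of the Spink3+/+ arrays, for each member (rows above the line) and as the mean over the tested genes of 7 marker lists (rows below), with red above and blue below the Spink3+/+ mean. Spink3-/- replicates 1 and 2 are high for Krt8 (0.81 and 1.07) and for the liver genes (1.73 and 1.43), and all 4 deficient arrays are low for Car2 and the erythroid genes.

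Sox9, the transcription factor of duct and progenitor cells, was read by 10 spots per array, where each other member probe had 1. It had log2 levels of -0.57 and -1.36 in Spink3-/-, -0.43 and -1.14 in Spink3-/-XKI/+ and -0.54 and -0.08 in Spink3+/+. The SD between spots of one array was 0.11 to 0.26, smaller than the distance of 0.79 between the Spink3-/- arrays. Replicate 2 of Spink3-/- and of Spink3-/-XKI/+ was low, while replicate 1 of both lay close to Spink3+/+ replicate 1. The difference was -0.65 in Spink3-/- against Spink3+/+ (SE 0.37, 95% interval -1.54 to 0.24, limma adjusted p = 0.987) and -0.48 in Spink3-/-XKI/+ against Spink3+/+ (95% interval -1.37 to 0.41, adjusted p = 0.802). In the row shared with Spink3+/+, the Spink3-/- array was at -0.26 from the Spink3+/+ mean, against -1.05 for the array of the other row. With row as a block the sign turned for Spink3-/-XKI/+ against Spink3+/+, to 0.32 (SE 0.53).

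Car2, the cytosolic carbonic anhydrase of duct cells and of red blood cells, was low in both deficient genotypes. Its log2 levels were -1.04 and -1.88 in Spink3-/-, -1.03 and -1.92 in Spink3-/-XKI/+ and -0.46 and -0.12 in Spink3+/+. All 4 arrays of the deficient genotypes lay below both Spink3+/+ arrays, and those genotypes overlapped each other. This probe was dim as well, though well above background on every array. Its replicate 2 signals were 30.3 in Spink3-/- and 31.2 in Spink3-/-XKI/+, beside 31.9 for a Cftr spot that was not well above background. The difference was -1.17 log2 in Spink3-/- (SE 0.39, 95% interval -2.13 to -0.21, limma adjusted p = 0.97) and -1.19 in Spink3-/-XKI/+ (SE 0.39, 95% interval -2.15 to -0.23, limma adjusted p = 0.584). Between the deficient genotypes it was 0.02, with an interval of -0.95 to 0.98. As with Sox9, replicate 2 of both was the lowest. These are the arrays with the lowest 75th percentiles, 111.2 and 118.0, whose part in the values was not tested. Within the row shared with Spink3+/+ the Spink3-/- difference was -0.75. With row as a block the Spink3-/-XKI/+ difference was -0.35 (SE 0.58, limma adjusted p = 0.953). Over the 19 alternatives of the processing the Spink3-/- difference against Spink3+/+ ran from -1.59 to -0.63.

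The mean of the tested erythroid genes was low on the same arrays as Car2, though not every gene was. Of 10 erythroid markers 6 were tested, and all 6 were lower in Spink3-/- (median difference -0.77) and in Spink3-/-XKI/+ (median -1.02) than in Spink3+/+. None of them passed limma's adjusted threshold, and 2 and 5 of them had an unadjusted p under 0.05, beside 5.03% and 7.6% of all genes. Without overlap 3 and 5 of them were lower, where 16.6% and 16.2% of all genes were. Their summed level was 8.64 to 8.71 in Spink3-/-, 8.07 to 8.19 in Spink3-/-XKI/+ and 8.54 to 9.68 in Spink3+/+. Spink3+/+ thus overlapped Spink3-/- in the sum, which the globin gene Hba-a1 carries. Hba-a1 stood at 8.59 and 8.66 in Spink3-/-, beside 9.63 and 8.46 in Spink3+/+. The haem synthesis gene Alas2, at 2.65 and 2.77 beside 3.84 and 2.74, and Epor overlapped there too. Ahsp, the stabiliser of alpha globin, stood at -1.26 in Spink3-/- and -2.15 in Spink3-/-XKI/+ (SE 0.71), and the red cell anion exchanger gene Slc4a1 at -1.0 and -1.5 (SE 0.37). The Ahsp value in Spink3-/-XKI/+ rests on replicate 2, at -0.87 beside 1.39, and leaving out 1 array gave -3.28 to -1.01. Klf1 and Epb42 were above background on 0 arrays. The part of red cells in the Car2 values was not tested.

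Car1, the carbonic anhydrase most typical of red cells, is on that list and among the other carbonic anhydrases. Its log2 levels were -1.59 and -1.39 in Spink3-/-, -1.68 and -1.47 in Spink3-/-XKI/+ and -0.81 and -0.25 in Spink3+/+. It was thus lower without overlap in both, by differences of -0.96 (SE 0.24, limma adjusted p = 0.783) and -1.05 (SE 0.24, adjusted p = 0.413). Of 11 other carbonic anhydrases 6 were tested and 0 passed limma's adjusted threshold in either comparison with Spink3+/+. In each, 1 was under an unadjusted p of 0.05, beside 5.03% and 7.6% of all genes. Their median difference was -0.07 in Spink3-/- and -0.02 in Spink3-/-XKI/+. Car10, an anhydrase-related protein without catalytic activity, stood at 0.72 in Spink3-/-, and the hypoxia-linked membrane enzyme gene Car9 at -0.46 in Spink3-/-XKI/+.

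Cftr, the chloride channel of the apical duct membrane, was read well above background on 5 of 6 arrays. On this dim probe the log2 levels were -1.46 and -0.60 in Spink3-/-, -0.88 and -0.60 in Spink3-/-XKI/+ and -2.12 and -1.35 in Spink3+/+, where replicate 1 was not well above background. Spink3-/-XKI/+ lay above Spink3+/+ without overlap, and Spink3-/- overlapped both. The difference was 0.99 log2 in Spink3-/-XKI/+ against Spink3+/+ (SE 0.37, 95% interval 0.09 to 1.90), or 1.99-fold, with a limma adjusted p of 0.625. In Spink3-/- against Spink3+/+ it was 0.70 (SE 0.37, 95% interval -0.20 to 1.61, adjusted p = 0.987). By genotype means, Cftr stood above and Car2, which acts in the same secretion, below Spink3+/+ in both deficient genotypes. In the shared row the Spink3-/- array was 0.28 above the Spink3+/+ mean, and with row as a block the Spink3-/-XKI/+ difference was 0.14 (SE 0.52).

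Spp1, the secreted phosphoprotein osteopontin of duct cells, bone and macrophages, also had nearly equal means. It stood at 3.53 and 3.52 log2 in Spink3-/-, 3.56 and 3.75 in Spink3-/-XKI/+ and 3.52 and 3.60 in Spink3+/+. The 6 arrays lay between 3.52 and 3.75. The difference was -0.03 in Spink3-/- (95% interval -0.44 to 0.37) and 0.09 in Spink3-/-XKI/+ (95% interval -0.31 to 0.50), each against Spink3+/+. Spink3-/- was lower than Spink3-/-XKI/+ without overlap by a difference of -0.13 (SE 0.17, limma adjusted p = 0.931).

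Other cells that make osteopontin were read through 9 tested of 10 macrophage genes, which summed to 5.64 to 5.72 in Spink3-/-, 5.79 to 6.13 in Spink3-/-XKI/+ and 5.36 to 5.49 in Spink3+/+. Trem2, a receptor of lipid-laden macrophages, stood 1.78 higher in Spink3-/-XKI/+ (limma adjusted p = 0.313, SE 0.33) and 0.91 higher in Spink3-/- (adjusted p = 0.97) than in Spink3+/+. Cd163, a haemoglobin scavenger receptor, was not well above background in either deficient genotype. It was at least 1.32-fold lower in Spink3-/- and at least 1.71-fold lower in Spink3-/-XKI/+. Only the Spink3+/+ arrays took it through the filter on dim probes, which favoured its being lower. Of the 9 macrophage genes, 7 were higher and 1 lower without overlap in each deficient genotype. Of all genes 16.1% and 16.6% were in Spink3-/-, and 25.9% and 16.2% in Spink3-/-XKI/+. In each, 4 had an unadjusted limma p under 0.05, beside 5.03% and 7.6% of all genes, and 0 passed the adjusted threshold. Of 8 cartilage and bone genes 1 was tested, Acan, and it was not well above background in Spink3-/- or Spink3+/+. Of 8 osteopontin receptor chains 7 were tested and 0 passed limma's adjusted threshold. Under an unadjusted p of 0.05 there were 0 in either comparison, beside 5.03% and 7.6% of all genes. All 7 were higher in Spink3-/-XKI/+ than in Spink3+/+, 4 of them without overlap, where 25.9% of all genes were. In Spink3-/- 2 were higher without overlap, where 16.1% of all genes were. The median difference of the 7 was 0.17 in Spink3-/- and 0.40 in Spink3-/-XKI/+. Itga5 stood at 0.46 and 0.67 in these genotypes, Itgav at 0.43 in Spink3-/- and Itgb3 at 0.54 in Spink3-/-XKI/+.

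The median differences of the wider sets of duct genes lay close to 0. Of 8 duct transcription factors 7 were tested and 0 passed limma's adjusted threshold. At an unadjusted p under 0.05 there were 3 in Spink3-/- and 1 in Spink3-/-XKI/+, beside 5.03% and 7.6% of all genes. The median difference was -0.08 in Spink3-/- and -0.14 in Spink3-/-XKI/+, each against Spink3+/+. Elf3, an epithelial ETS factor, had log2 levels of -0.51 and -1.11 in Spink3-/-, -1.8 and -1.78 in Spink3-/-XKI/+ and -1.8 and -1.87 in Spink3+/+. Both Spink3-/- arrays were above the rest, by 1.03 against Spink3+/+ (SE 0.23, limma adjusted p = 0.741) and by 0.98 against Spink3-/-XKI/+ (adjusted p = 0.485). Pdx1, a factor of pancreatic progenitors and beta cells, stood at -1.19 and -0.89, but these rest on Spink3+/+ replicate 2, at 1.43, beside -0.97 on replicate 1. Without that array the Spink3-/-XKI/+ difference of Pdx1 was 0.31. Glis3, a zinc finger factor of islets and ducts, was not well above background in Spink3+/+. In Spink3-/- 1 of 2 arrays was well above background, so no bound of the fold is given. It was well above background on both Spink3-/-XKI/+ arrays, for which no lower bound of the fold could be given. Only these arrays took Glis3 through the filter on dim probes. It is among the genes under an unadjusted p of 0.05 in both comparisons.

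Of 13 genes of duct ion and fluid transport 10 were tested and 0 passed limma's adjusted threshold. Under an unadjusted p of 0.05 were 0 and 1, beside 5.03% and 7.6% of all genes. Their median difference was 0.06 in Spink3-/- and 0.13 in Spink3-/-XKI/+. Sctr, the secretin receptor that switches on duct secretion, had log2 levels of 0.64 and 0.67 in Spink3-/-, 1.12 and 1.55 in Spink3-/-XKI/+ and 0.83 and 0.64 in Spink3+/+. As for Krt20, both Spink3-/-XKI/+ arrays were above the rest, by 0.60 against Spink3+/+ (SE 0.20, limma adjusted p = 0.592). The bicarbonate cotransporter gene Slc4a4 differed by 1.04 in Spink3-/-, but this rests on replicate 1 at 0.13, with replicate 2 at -1.73. The potassium channel gene Kcnn4 stood at 0.43 and 0.53, but these rest on Spink3+/+ replicate 1, at -2.31 beside -0.98 on replicate 2. That replicate 1 spot was not well above background.

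Of 12 duct surface, junction and cilium genes 10 were tested and 0 passed limma's adjusted threshold. Under an unadjusted p of 0.05 there were 0 in either comparison, beside 5.03% and 7.6% of all genes. Their median difference was -0.04 in Spink3-/- and -0.05 in Spink3-/-XKI/+. The tight junction genes Cldn7 and Cldn4 stood at 0.42 in Spink3-/- and 0.67 in Spink3-/-XKI/+. The matrix protease gene Mmp7 stood at -0.71 in Spink3-/-, with Spink3+/+ replicates as far apart as -0.02 and -2.46. The stem and duct cell marker Prom1 stood at -0.47 in Spink3-/-XKI/+.

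Of 10 genes associated with metaplasia 9 were tested and 0 passed limma's adjusted threshold. Under an unadjusted p of 0.05 were 3 and 1, beside 5.03% and 7.6% of all genes. In Spink3-/- 7 of the 9 were higher than in Spink3+/+, 6 of them without overlap and 0 lower without overlap, where 16.1% and 16.6% of all genes were. The median difference was 0.32. In Spink3-/-XKI/+ the median was 0.35, with 3 higher and 1 lower without overlap, where 25.9% and 16.2% of all genes were. Agr2, a secretory disulphide isomerase of mucous cells, had log2 levels of 1.14 and 0.22 in Spink3-/-, -0.15 and -0.31 in Spink3-/-XKI/+ and -0.33 and -0.27 in Spink3+/+. Both Spink3-/- arrays were above the rest. Its difference was 0.98 (SE 0.31, limma adjusted p = 0.928) in Spink3-/- against Spink3+/+. The hyaluronan receptor gene Cd44 had log2 levels of 1.54 and 1.71 in Spink3-/-, 0.75 and 1.5 in Spink3-/-XKI/+ and 0.36 and 0.98 in Spink3+/+. It was 0.96 higher in Spink3-/- than in Spink3+/+ (SE 0.32, adjusted p = 0.97), with the genotypes in the order of Krt8 and Krt19. In Spink3-/-XKI/+ the transcription factor genes Klf4 and Onecut2 stood at -0.73 and 0.55.

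Of 15 other keratins 11 were tested and 0 passed limma's adjusted threshold. Under an unadjusted p of 0.05 there were 0 in either comparison, beside 5.03% and 7.6% of all genes. Their median difference was 0.15 in Spink3-/- and 0.18 in Spink3-/-XKI/+, and Krt1, Krt4 and Krt6a, keratins of skin and other layered epithelia, were above background on 0 arrays. Krt15, a keratin of basal cells, stood at 1.23 and 0.54. Its Spink3+/+ replicate 1, at -3.06 beside -2.06 on replicate 2, was not well above background. Krt10 differed by 0.83 in Spink3-/- and rests on replicate 2, at 0.15 beside -1.95. Krt17 differed by 1.42 in Spink3-/-XKI/+ and likewise rests on replicate 2, at 0.86 beside -1.84. Krt23, a type I keratin singled out after its values were seen, had log2 levels of 0.76 and 1.1 in Spink3-/-, 1.89 and 1.61 in Spink3-/-XKI/+ and 1.41 and 1.36 in Spink3+/+, with no overlap between any of the genotypes. It was lower in Spink3-/- than in Spink3-/-XKI/+ by a difference of -0.82 (SE 0.20, limma adjusted p = 0.513). Of all genes 21.5% were lower without overlap in that comparison. Against Spink3+/+, 16.6% were lower in Spink3-/- and 25.9% higher in Spink3-/-XKI/+ without overlap.

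Among 13 partners of keratin filaments and other filament proteins 12 were tested and 0 passed limma's adjusted threshold. Under an unadjusted p of 0.05 were 0 and 1, beside 5.03% and 7.6% of all genes. The median difference was -0.01 in Spink3-/- and -0.09 in Spink3-/-XKI/+. The desmosome plaque gene Dsp, which anchors keratin filaments at cell contacts, stood at -0.76 in Spink3-/-XKI/+ (limma adjusted p = 0.637, SE 0.29). The muscle filament gene Des stood at 0.71 in Spink3-/- and at 1.1 in Spink3-/-XKI/+, which rests on replicate 2, at 1.38 beside -0.25. Leaving out 1 array gave 0.28 to 1.92 for Des in Spink3-/-XKI/+. Eppk1, a keratin-binding plakin, stood at 0.47 in Spink3-/-.

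**Figure D4:**
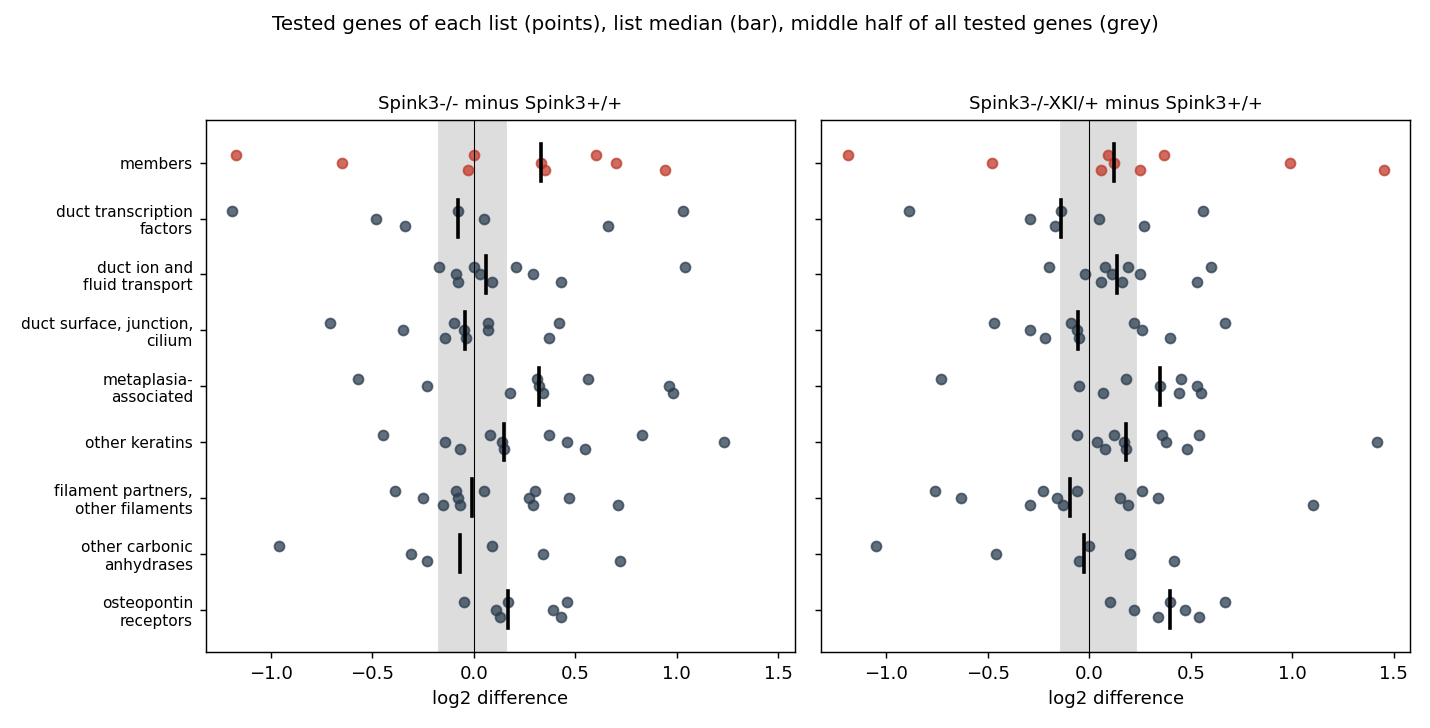
Log2 difference against Spink3+/+ (x axis) of each tested gene (points) in the 9 members and 8 related gene lists (rows), for Spink3-/- on the left and Spink3-/-XKI/+ on the right, with a bar for the list median and a grey band for the range between the lower and upper quartiles of all tested genes. The members spread from -1.17 to 0.94 in Spink3-/- and from -1.19 to 1.45 in Spink3-/-XKI/+, on both sides of the band.

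Genes of acinar and endocrine cells, the other main pancreatic cells, were read on the same arrays. Their sums are of RNA signal, carried mostly by the brightest genes, and give no number of cells. The 13 acinar genes summed to 13.61 to 14.00 in Spink3-/-, 13.82 on both Spink3-/-XKI/+ arrays and 13.74 to 13.92 in Spink3+/+, with median differences of -0.14 and 0.02. Pnlip, pancreatic lipase, stood at -1.41 in Spink3-/- (SE 0.32, limma adjusted p = 0.741) and at 1.09 in Spink3-/-XKI/+ (SE 0.32, adjusted p = 0.521), while the elastase gene Cela1 stood at -0.58 in Spink3-/- and the lipase gene Cel at -0.56 in Spink3-/-XKI/+. The 8 endocrine genes had median differences of 0.04 and 0.16. Iapp stood at -0.21 and Pcsk1 at 0.14 in Spink3-/-, and Chga, a granin of endocrine cells, at 0.53 in Spink3-/-XKI/+.

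Over the 6 arrays some members varied together and others did not. Among 36 pairs, Pearson's r was 0.94 for Krt8 with Krt19 and 0.93 for Sox9 with Car2, and it was -0.96 for Krt18 with Sox9. No other pair lay beyond 0.9 in either direction. Krt8 and its filament partner Krt18 stood at 0.68, and Krt19 and Krt7 at 0.56. Krt20 was nearly unrelated to Krt8 (-0.08) and Krt7 (0.01). These values describe 6 arrays that share genotypes, slide and scaling, and they carry no test.

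**Figure D5:**
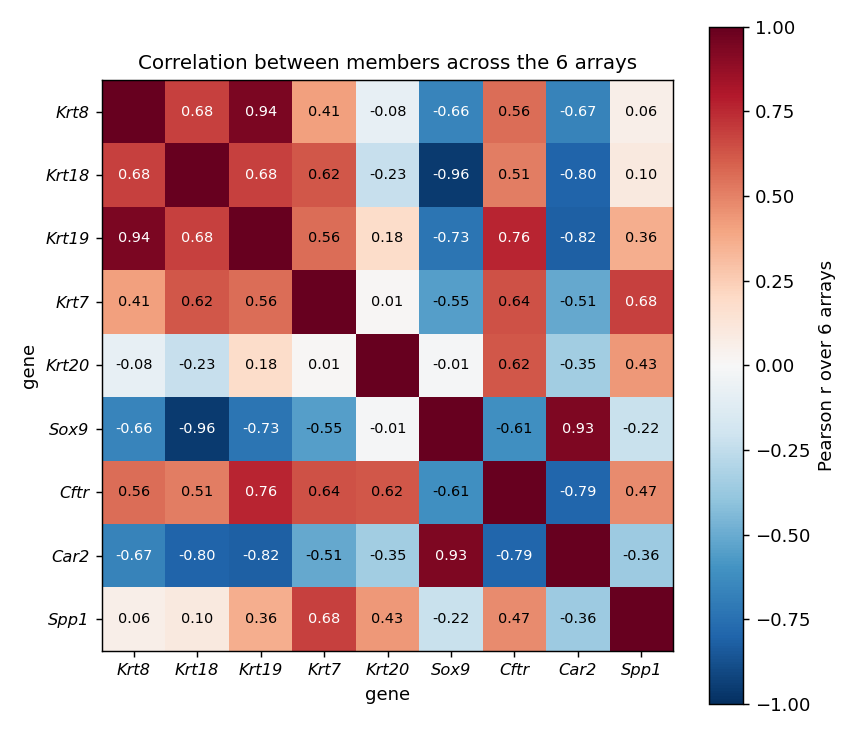
Pearson's r between the log2 levels of each pair of members over the 6 arrays, from blue (-1) to red (1). Krt8 with Krt19 (0.94) and Sox9 with Car2 (0.93) are the most alike pairs, and Sox9 and Car2 are negative against every keratin except Sox9 against Krt20 (-0.01), which is near 0.

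For the 8 members above background on all arrays, the genes of the most similar profile were looked up among 12258 genes above background on all arrays. The closest were Stk17b and Ptpn23 for Krt8, Cep85l and Unk for Krt18, Ttyh2 and Usp31 for Krt19, and Afg3l1 and 3110082I17Rik for Krt7. They were Spg20 and D630011A20Rik for Krt20, Csnk1g3 and Mtmr1 for Sox9, Leprot and Tomm22 for Car2, and Usp10 and Slc30a5 for Spp1. Their r was 0.987 to 0.997 over 6 arrays. Each member had between 112 and 232 genes with an r over 0.9, so such likeness is common over so few arrays.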

How the data were processed

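The authors deposited linear intensities made with Agilent Feature Extraction 10.7.3.1, per the file headers: each spot's signal after background subtraction and detrending, with a surrogate for very dim spots and no step between arrays. The series' value file repeats these intensities (largest difference 0, column medians 15.24 to 19.91), on the same scale, uncentred. Of 62976 spots per array 59305 were not controls. No spot was saturated, and outlier spots were left out.

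From these, log2 of the signal minus log2 of the array's 75th percentile was computed, averaging a probe's spots. The filter kept probes that some genotype's 2 arrays both read well above background (24818 of 55681 probes, 44.6%). Gene names came from RefSeq (49997 genes): 26762 by accession, 3819 by symbol, 639 by an older symbol, 1711 by the file's name, and 22750 had no name. The brightest probe represents a gene. limma 3.58.1 in R 4.3.3 was fitted to all 6 arrays (two-sided, residual degrees of freedom 3), with a fit over probes and an F test. The fit was also run on simulated data, with planted changes larger than any member's difference, so differences of the members' size were not covered. Where no array of a group was well above background but both of the other were, any lower bound of the fold stated uses the lowest signals well above background. Python 3.11.15, matplotlib 3.10.9 and the R package data.table, version 1.17.8, were also used. Only 2 arrays per genotype limit the precision.

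The members and lists were chosen with earlier results of these data known. All members are named, and of each other list up to 2 genes with the largest difference per comparison with Spink3+/+. Named beyond this rule were Krt23, Ttr, Hba-a1, Alas2 and Epor, some genes not above background, the targeted gene and the genes of most similar profile. Alternatives covered background, scaling, filter, probe choice, fit, blocks and left-out arrays. Probe positions and sequences are those of the array files, on mm9.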

Additional observations from a re-analysis of the deposited data

How the results depend on the processing

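No member passed the limma adjusted threshold in any comparison under any of the 19 alternatives. Over members, comparisons and alternatives, 481 of 510 values kept the direction of the reported one and 29 had the opposite sign. For the other genes named by the rule of largest difference, 1138 of 1161 kept it and 23 did not. The cause of a change was not tested. The number of arrays, 2 per genotype, limits the precision, and a probe not well above background gives only a bound.

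The genes called over the whole array numbered 5 in Spink3-/- against Spink3+/+, 1 in Spink3-/-XKI/+ against Spink3+/+ and 1 in Spink3-/- against Spink3-/-XKI/+. In the same order they numbered 1, 2 and 0 with normexp background correction, 7, 3 and 4 with quantile normalization, and 6, 1 and 2 with scaling on the 8 spike-in probes. They numbered 1, 1 and 0 with no filter, and 1, 1 and 0 with probes above background on all arrays. They numbered 2, 1 and 1 with the mean of a gene's probes, 1, 1 and 0 with only the 2 genotypes compared in the fit, and 2, 2 and 0 with a trended prior. They numbered 1, 0 and 3 with slide row as a block. Leaving out 1 array gave 1 to 6, 1 to 2 and 0 to 3. The lone array left in a genotype is then assumed to vary like the others. In Spink3-/- against Spink3+/+ the count was 1 without Spink3+/+ replicate 1, without Spink3-/- replicate 2 or without either Spink3-/-XKI/+ replicate, 2 without Spink3+/+ replicate 2 and 6 without Spink3-/- replicate 1. In Spink3-/-XKI/+ against Spink3+/+ it was 2 without Spink3+/+ replicate 2. Between Spink3-/- and Spink3-/-XKI/+ it was 3 without Spink3-/- replicate 1 and 0 without any other array.

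With the replicate number as a block, 1, 1 and 0 genes were called, none of them a member. Same-numbered samples' deviations correlated at -0.06 between Spink3-/- and Spink3+/+, at 0.03 between Spink3-/-XKI/+ and Spink3+/+ and at 0.20 between Spink3-/- and Spink3-/-XKI/+, which differ in sign, so the numbers were not taken to pair the samples. The largest value, 0.20, is between the genotypes whose replicate 2 arrays had the lowest 75th percentiles.

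Opposite signs, in log2, were as follows. Acan, Upk1b and Apob were not well above background in Spink3+/+, so their fitted values against it are not measured differences. With normexp, Krt7 was 0.03 in Spink3-/- against Spink3+/+ and Acan was -0.02 in Spink3-/-XKI/+ against Spink3+/+. Spike-in scaling gave Krt7 0.11 and Spp1 0.08 in Spink3-/- against Spink3+/+, and Krt7 0.01 against Spink3-/-XKI/+; it also moved the median of all genes in Spink3-/- against Spink3+/+ to 0.11 from -0.01. With probes above background on all arrays, Krt10 was -0.22 in Spink3-/- against Spink3+/+. With row as a block, Spink3-/- against Spink3+/+ gave Krt10 -0.22 and Upk1b 0.2, and Spink3-/- against Spink3-/-XKI/+ gave Krt7 0.08, Cftr 0.14 and Car2 -0.4. In the same fit, Spink3-/-XKI/+ against Spink3+/+ gave Krt7 -0.23, Krt8 -0.02, Krt18 -0.47, Sox9 0.32, Klf4 0.19, Krt15 -0.76, Cd163 0.43 and Acan -0.12.

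Leaving out 1 array spanned 0 for the following. For Spink3-/- against Spink3+/+, Krt7 ran from -0.15 to 0.14, Spp1 from -0.08 to 0.01, Pdx1 from -2.39 to 0, Kcnn4 from -0.24 to 1.1, Mmp7 from -1.92 to 0.51, Eppk1 from -0.1 to 1.04, Pcsk1 from -0.11 to 0.39, Itga5 from -0.04 to 0.97, Lrrn4 from -0.11 to 1.02, Krt10 from -0.22 to 1.87 and Upk1b from -0.65 to 0.2. In Spink3-/-XKI/+ against Spink3+/+, Krt7 ran from -0.1 to 0.21, Krt8 from -0.07 to 0.57, Krt18 from -0.1 to 0.35, Spp1 from 0 to 0.19, Kcnn4 from -0.14 to 1.2, Pdx1 from -2.09 to 0.31, Krt15 from -0.15 to 1.24, Afp from -0.16 to 1.7 and Apob from -0.05 to 1.5. Between Spink3-/- and Spink3-/-XKI/+, Krt7 ran from -0.22 to 0.1, Krt18 from -0.09 to 0.51, Krt19 from -0.03 to 0.5, Sox9 from -0.57 to 0.22, Cftr from -0.72 to 0.14 and Car2 from -0.43 to 0.46.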
